A study of Homo sapiens with 24 samples.

Results

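The NF-κB system was followed through 10 genes: the 5 subunit genes NFKB1, NFKB2, RELA, RELB and REL, the inhibitor genes NFKBIA, NFKBIB and NFKBIE, and the feedback genes TNFAIP3 and BIRC3. They were named as parts of this system, with earlier results of these data known, and matched by symbol among the 57820 genes counted in each library. All 10 passed the filter on low counts in every comparison.

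NF-κB dimers are held in the cytoplasm by inhibitor proteins of the IκB family, and kinases that mark these inhibitors for degradation release the dimers to the nucleus. In the alternative pathway, the NF-κB2 precursor is processed after the kinase NIK accumulates, and the product pairs with RelB. Several subunit and inhibitor genes are themselves NF-κB targets, so that the pathway limits its own activity. In cells derived from bone tumors the pathway is known for driving cytokine and chemokine genes and genes of cell survival.

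The study asked how loss of ID3, an inhibitor of basic helix-loop-helix transcription factors, alters the response of cells to mocetinostat, an inhibitor of class I histone deacetylases (HDACs). RNA-seq was performed on 24 libraries, with 3 biological replicates in each of 8 groups. U2OS is a human osteosarcoma cell line, and AID-DIvA cells are U2OS cells that carry a vector for the restriction enzyme AsiSI. AID-DIvA cells, WT or ID3-KO, were untreated or were exposed to mocetinostat for 24 h and then kept for 24 h in medium without the drug. U2OS cells, WT or ID3-KO, were untreated or were exposed to mocetinostat for 24 h and, as inferred from the labels together with the methods, collected without recovery. The cell line and the stage of collection therefore coincide and cannot be told apart. The sources used here give no dose for this experiment and do not say whether a knockout line is 1 clone.

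The sample titles of the 12 AID-DIvA libraries and another label, the treatment entry, name opposite treatments. The titles were followed, and every direction given for AID-DIvA treatment rests on them. Library totals ran from 37878751 to 76906266 counts in AID-DIvA cells and from 46285533 to 70692114 in U2OS cells. ID3 RNA was lower in every KO library than in every WT library of the same line and treatment. It was still counted in KO cells, at 29.1 to 67.1 CPM against 48.7 to 128 CPM in WT cells. CPM are counts scaled to the library total, here with the correction for library composition described below. Replicate 1 of untreated WT U2OS cells stood apart, with a chi-square per gene of 98.2 and 85.9 against its fellow replicates, which differed from each other by 4.18. In no other group did a pair of replicates exceed 25.6. In that library the longest 25% of genes by exonic length had a median log2 deviation of -0.25, against 0.01 in the shortest 25%, so the values of members and the counts of called genes that rest on it are also given without it. Over the members, replicate 1 of recovered KO AID-DIvA cells and replicate 1 of treated KO U2OS cells lay above their fellow replicates by a median of 0.25 and 0.21 on the log2 scale. Among osteoblast and mesenchymal markers, COL1A1 (244 to 821 TPM, counts scaled by gene length and library) and VIM (276 to 563 TPM) were high, whereas SP7, COL1A2 and TWIST1 stayed below 1 TPM. The 8 leukocyte markers summed to 0.844 to 1.77 TPM in untreated libraries and 2.47 to 3.66 TPM in treated libraries, led by ITGAM at up to 3.004 TPM, while PTPRC did not exceed 0.161 TPM and CD3E and LYZ were at 0 in some libraries. The 5 epithelial and endothelial markers summed to 7.19 to 10.8 TPM in untreated and 8.96 to 17.4 TPM in treated libraries. Their part in the results below was not tested.

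To see what the members share besides their names, promoters from RefSeq (GRCh38.p14) were searched on both strands for the κB consensus, the sequence family to which NF-κB dimers bind, over 250 bases before and 50 bases after each start. Of the 10 members, 8 were in the promoter table, with 13 promoters between them. A κB match was present in at least 1 promoter of 7 of these 8 genes, against 7.09% of all 27305 genes in the table and 5.91% of all 35116 promoters. RELA, with 2 promoters, had no match in either window. For comparison, the E-box CANNTG, the element read by basic helix-loop-helix factors, was present in 5 of the 8 members and in 73.1% of all genes. The stretches around the matches of 4 members are shown. TNFAIP3 and BIRC3 were taken because they responded most to treatment among the 8 members in the promoter table, which did not hold RELB. NFKB1 was taken because it fell in U2OS cells, and NFKBIA as the main feedback inhibitor of the classical pathway. Each reads 5′ to 3′ along the gene, with κB matches in capitals, and was placed in hg19 by an exact and unique match.
NFKB1 chr4:103422437-103422486, plus strand: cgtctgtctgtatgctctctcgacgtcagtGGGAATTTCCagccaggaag
NFKBIA chr14:35874017-35874066, minus strand: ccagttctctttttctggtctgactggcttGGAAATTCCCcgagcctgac
TNFAIP3 chr6:138188299-138188360, plus strand: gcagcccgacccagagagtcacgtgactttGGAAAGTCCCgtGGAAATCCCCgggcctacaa
BIRC3 chr11:102187986-102188099, plus strand: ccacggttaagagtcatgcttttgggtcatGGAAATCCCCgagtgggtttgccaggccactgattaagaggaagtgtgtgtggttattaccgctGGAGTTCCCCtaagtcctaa
The NFKB1 match lay 49 bases before the start on the gene's own strand. The matches in NFKBIA, TNFAIP3 and BIRC3 lay on the opposite strand, TNFAIP3 and BIRC3 having 2 each. NFKB2 held matches in 2 of its 3 promoters, while REL and NFKBIB each held a pair of overlapping matches. A match describes the letters in this window and is not evidence of binding.

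Compared per length, the members spanned a wide range of levels. In untreated WT AID-DIvA cells the highest was NFKBIB at 78.7 ± 5.60 TPM (mean ± SD, n = 3), followed by RELA at 67.96 ± 1.16 TPM and NFKB2 at 53.8 ± 1.76 TPM. NFKBIA, NFKB1, RELB and NFKBIE lay between 33.3 and 15.2 TPM on average. TNFAIP3 at 4.15 ± 0.197 TPM, REL at 3.48 ± 0.230 TPM and BIRC3 at 1.05 ± 0.0423 TPM were the lowest. In treated WT U2OS cells NFKB2 led at 131 ± 1.88 TPM, and BIRC3 stood at 15.7 ± 0.470 TPM.

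**Figure D1:**
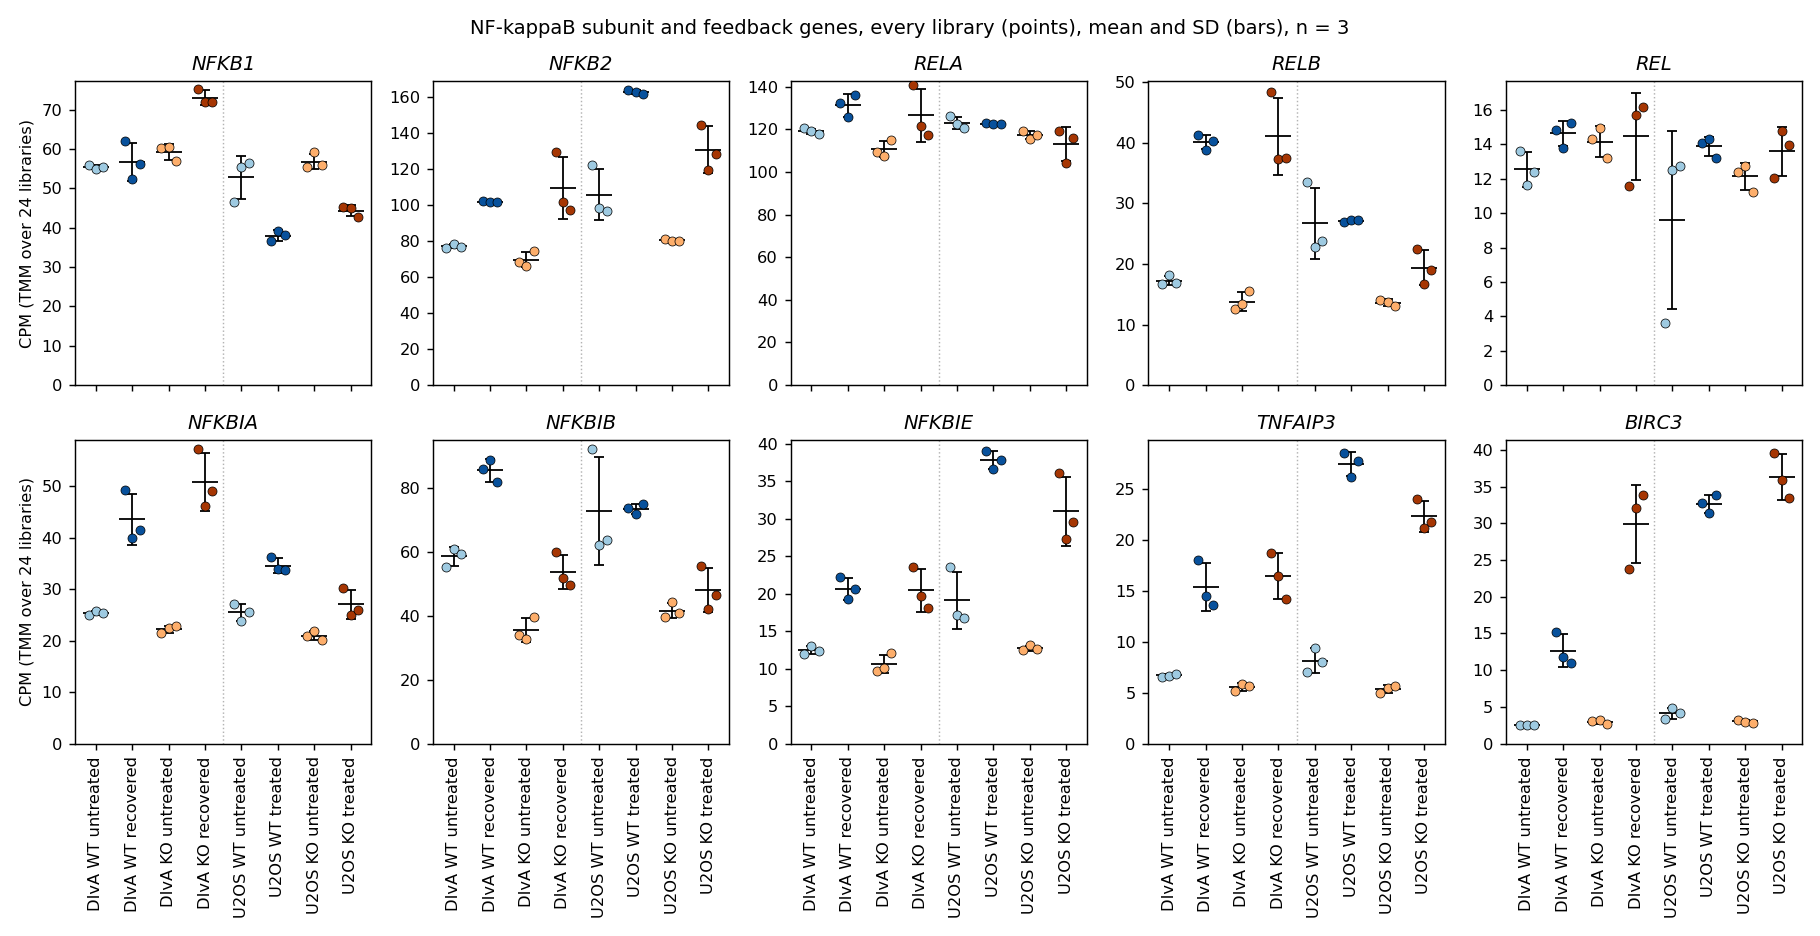
CPM of the 10 members in every library, with groups along the horizontal axis, 1 point per library, and the mean and SD of 3 libraries as black bars. BIRC3 lies between 2.48 and 4.87 CPM in every untreated library and between 10.98 and 39.6 CPM in every treated library, and replicate 1 of untreated WT U2OS cells is apart from its group for REL, RELB and NFKBIB.

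All values per library below are in CPM scaled by TMM (the trimmed mean of M values, a correction for library composition) over the 24 libraries. Each standard error is the absolute log2 difference divided by the square root of the F statistic. Differences are log2 fold changes, and they and F are from edgeR's quasi-likelihood test. A gene was called at a Benjamini-Hochberg adjusted p below 0.05 over all genes tested, and every adjusted p is from that test. The label of biological replicates comes from the methods, and the p-values measure the spread between these 3 libraries a group. Fewer cells of a kind and less RNA per cell cannot be told apart in such bulk samples. Treatment and genotype comparisons of the same line share libraries.

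Treatment was followed by higher RNA of most members in AID-DIvA cells of both genotypes and in KO U2OS cells, and of 5 of the 10 in WT U2OS cells. In AID-DIvA cells after recovery, 9 of the 10 members were called higher in WT cells (23.9% of all tested genes were called higher and 23% lower) and 8 in KO cells (20.2% higher and 19.9% lower of all tested genes). No member was called lower there, whether by edgeR, at an unadjusted p below 0.05 or by DESeq2. In treated U2OS cells 5 members were called higher and 1 lower in WT cells (26% higher and 22.9% lower of all), and 7 higher and 1 lower in KO cells (35.8% higher and 34% lower of all). The median log2 difference over the members was 0.66 and 0.79 in WT and KO AID-DIvA cells and 0.49 and 0.44 in WT and KO U2OS cells, where the median of all tested genes was between -0.02 and 0.01. NFKB2, NFKBIA, NFKBIE, TNFAIP3 and BIRC3 were called higher in all 4 comparisons. The share of all genes called higher in all 4 is not given here and cannot be read from the single shares. Without replicate 1 of untreated WT cells, 7 members were called higher and 1 lower in WT U2OS cells, while calls over all genes in either direction rose to 66.4%. The WT U2OS differences without that library were 2.85 for BIRC3, 1.64 for TNFAIP3, 1.16 for NFKBIE, 0.73 for NFKB2, 0.49 for NFKBIA, -0.56 for NFKB1 and 0.01 for RELA, each with the same call as with it.

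**Figure D2:**
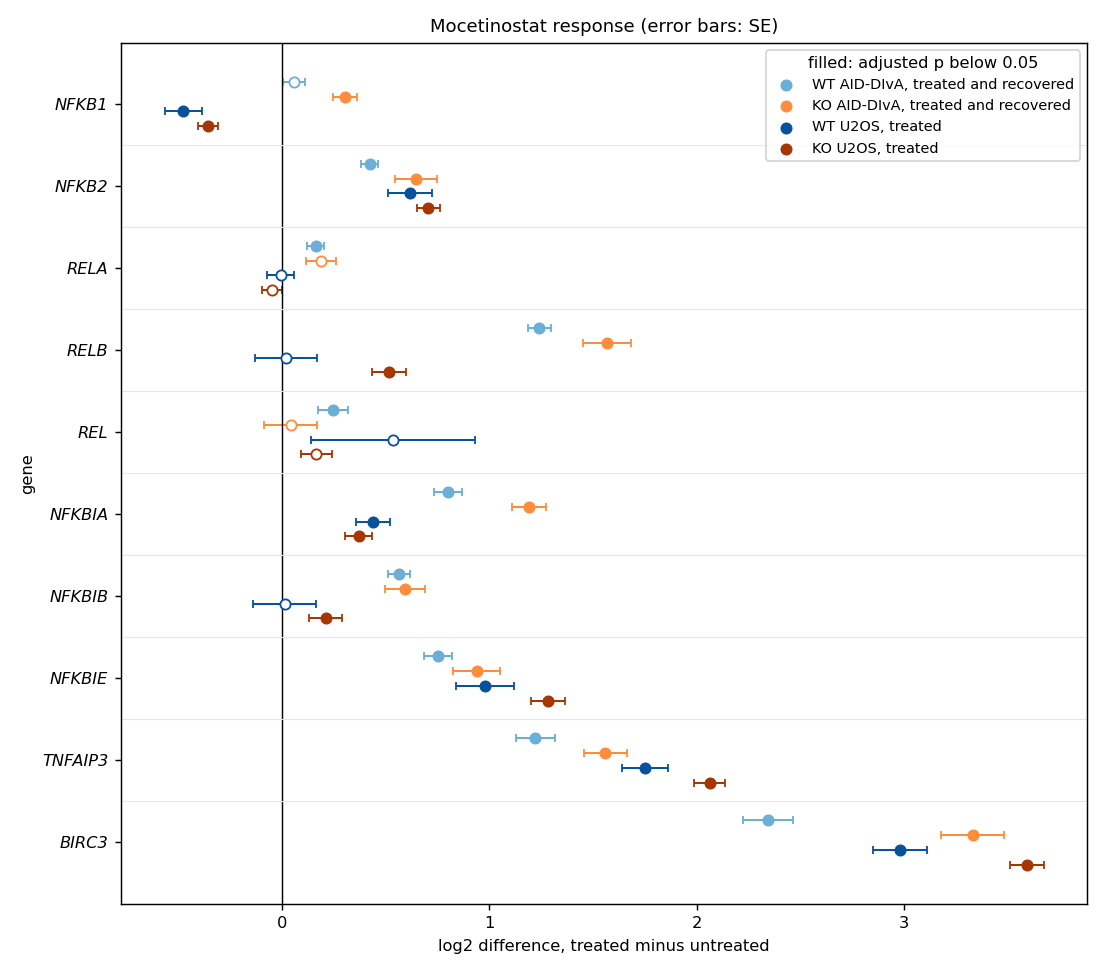
Log2 difference, treated minus untreated, on the horizontal axis for each member in the 4 treatment comparisons, with bars of 1 standard error and filled points for an adjusted p below 0.05. BIRC3 has the largest difference in each comparison, from 2.35 to 3.59, and NFKB1 lies below 0 in U2OS cells only.

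BIRC3 encodes cIAP2, a ubiquitin ligase that acts downstream of TNF receptors and helps to degrade NIK. It lies on chromosome 11, 102188215 to 102210134 (hg19, plus strand). In WT AID-DIvA cells it was at 2.48, 2.53 and 2.55 CPM untreated and at 15.2, 11.7 and 10.98 CPM after recovery. In KO AID-DIvA cells it was at 3.03, 3.21 and 2.68 CPM untreated and 23.8, 32.1 and 33.8 CPM after recovery. Treated libraries were far above untreated ones, and the recovered KO libraries were all above the recovered WT libraries. The log2 difference was 2.35 ± 0.12 in WT cells (edgeR adjusted p = 5.32e-09), a 5.08-fold rise, and 3.33 ± 0.15 in KO cells (edgeR adjusted p = 4.37e-07), a 10.1-fold rise. In U2OS cells BIRC3 was at 3.40, 4.87 and 4.11 CPM in untreated and 32.7, 31.4 and 33.8 CPM in treated WT cells. Untreated KO U2OS cells had 3.26, 2.93 and 2.85 CPM and treated ones 39.6, 35.9 and 33.5 CPM. Here the treated WT and KO libraries overlapped. The differences were 2.98 ± 0.13 (edgeR adjusted p = 2.99e-06) and 3.59 ± 0.080 (edgeR adjusted p = 2.82e-20). By mean level, treated KO U2OS, treated WT U2OS and recovered KO AID-DIvA cells formed the top of the order with overlapping neighbours, recovered WT AID-DIvA cells came next without overlap, and the untreated groups were at the bottom.

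TNFAIP3 encodes A20, a ubiquitin-editing enzyme that shuts off signaling to the IκB kinases (chromosome 6, 138188351 to 138204449, plus strand). It was at 6.57, 6.64 and 6.83 CPM in untreated and 18.00, 14.5 and 13.6 CPM in recovered WT AID-DIvA cells. The KO values were 5.18, 5.89 and 5.62 CPM and 18.7, 16.4 and 14.2 CPM. Recovered WT and KO cells overlapped, and both were above every untreated library. The differences were 1.22 ± 0.095 in WT (edgeR adjusted p = 2.87e-07) and 1.56 ± 0.10 in KO cells (edgeR adjusted p = 3.54e-06). U2OS WT cells rose from 7.01, 9.39 and 8.04 CPM to 28.5, 26.1 and 27.7 CPM, and KO cells from 4.93, 5.44 and 5.64 CPM to 23.98, 21.1 and 21.7 CPM. All treated U2OS libraries were above all recovered AID-DIvA libraries. The differences were 1.75 ± 0.11 (edgeR adjusted p = 1.57e-05) and 2.06 ± 0.074 (edgeR adjusted p = 9.31e-17). An antisense gene, RP11-356I2.4, overlaps TNFAIP3. The forward-strand column held at most 0.658% of any member's counts, and with counts of the reverse strand alone no call in the 4 treatment comparisons changed.

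Among the inhibitors, NFKBIE, which encodes IκBε, and NFKBIA, which encodes IκBα, rose in every treatment comparison, by different amounts in the lines. NFKBIE was at 11.9, 13.1 and 12.4 CPM in untreated and 22.2, 19.3 and 20.6 CPM in recovered WT AID-DIvA cells, a difference of 0.75 ± 0.067 (edgeR adjusted p = 1.03e-06). In KO cells it was at 9.71, 10.2 and 12.04 CPM and 23.6, 19.7 and 18.1 CPM, a difference of 0.94 ± 0.11 (edgeR adjusted p = 0.000171). Neither pair of groups overlapped. In U2OS cells it went from 23.6, 17.2 and 16.7 CPM to 39.1, 36.7 and 37.8 CPM in WT (0.98 ± 0.14, edgeR adjusted p = 0.000802) and from 12.5, 13.1 and 12.7 CPM to 36.1, 27.3 and 29.6 CPM in KO cells (1.28 ± 0.082, edgeR adjusted p = 4.52e-11). The first untreated WT library, which stood apart, was the highest of its group.

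NFKBIA (chromosome 14, 35870717 to 35873955, minus strand) was at 24.9, 25.8 and 25.4 CPM in untreated and 49.2, 39.99 and 41.5 CPM in recovered WT AID-DIvA cells. KO cells had 21.4, 22.4 and 22.8 CPM and 57.2, 46.2 and 49.1 CPM. The recovered groups of both genotypes overlapped and lay well above the untreated ones, with differences of 0.80 ± 0.068 in WT (edgeR adjusted p = 6.56e-07) and 1.19 ± 0.082 in KO cells (edgeR adjusted p = 4.17e-06). In U2OS cells the rise was smaller, from 27.03, 23.9 and 25.6 CPM to 36.2, 33.9 and 33.6 CPM in WT and from 20.8, 21.8 and 20.2 CPM to 30.3, 24.96 and 25.9 CPM in KO cells. Treated and untreated libraries still did not overlap, and the differences were 0.44 ± 0.081 (edgeR adjusted p = 0.00294) and 0.37 ± 0.066 (edgeR adjusted p = 2.96e-05).

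NFKBIB, which encodes IκBβ, was called higher in AID-DIvA cells of both genotypes. It went from 55.3, 60.9 and 59.4 CPM to 85.8, 88.7 and 81.7 CPM in WT cells (0.56 ± 0.053, edgeR adjusted p = 1.69e-06) and from 34.04, 32.8 and 39.6 CPM to 59.8, 51.8 and 49.6 CPM in KO cells (0.59 ± 0.096, edgeR adjusted p = 0.000968). WT U2OS cells had 92.1, 62.2 and 63.6 CPM untreated and 73.7, 71.7 and 74.9 CPM treated, so that the groups overlapped only through the first untreated library. The difference was 0.01 ± 0.15 with all libraries (edgeR adjusted p = 0.956) and 0.22 without that library (edgeR adjusted p = 2.46e-06). In KO U2OS cells, at 39.5, 44.3 and 40.9 CPM and 55.7, 42.1 and 46.4 CPM, the groups overlapped and the difference was 0.21 ± 0.080 (edgeR adjusted p = 0.0275). That call was lost, among others, without replicate 1 of the treated KO cells (0.09, edgeR adjusted p = 0.135), or without replicate 1 or 3 of the untreated KO cells (edgeR adjusted p = 0.0808 and 0.0599), and in the fit of all 24 libraries. It was kept in 9 of 14 alternatives, a log2 threshold of 1 not counted. NFKBIB overlaps SIRT2 on the opposite strand.

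RELB and NFKB2 are the subunit genes of the alternative pathway. RELB, whose protein pairs with processed NF-κB2, was at 16.7, 18.1 and 16.9 CPM in untreated and 41.2, 38.8 and 40.3 CPM in recovered WT AID-DIvA cells (1.24 ± 0.055, edgeR adjusted p = 1.71e-09). KO cells had 12.6, 13.3 and 15.5 CPM and 48.4, 37.2 and 37.5 CPM (1.57 ± 0.12, edgeR adjusted p = 6.7e-06). The recovered libraries of both genotypes were the highest of all 8 groups and overlapped each other. In WT U2OS cells RELB was at 33.4, 22.9 and 23.7 CPM untreated and 26.8, 27.2 and 27.2 CPM treated, with the first untreated library above every treated one. The difference was 0.02 ± 0.15 (edgeR adjusted p = 0.931), and without that library it was 0.22 (edgeR adjusted p = 0.000382). KO U2OS cells rose from 14.1, 13.7 and 12.99 CPM to 22.4, 16.8 and 19.03 CPM, with no overlap (0.52 ± 0.082, edgeR adjusted p = 9.87e-06).

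NFKB2, which encodes the precursor p100, rose from 76.5, 78.7 and 76.6 CPM to 102, 102 and 102 CPM in WT and from 68.7, 66.1 and 74.5 CPM to 129.5, 102 and 97.5 CPM in KO AID-DIvA cells. In U2OS cells it rose from 122, 98.5 and 97.1 CPM to 164, 163 and 162 CPM in WT and from 81.1, 79.98 and 80.3 CPM to 145, 119 and 129 CPM in KO cells. Treated libraries were above untreated ones in all 4 comparisons. The differences were 0.42 ± 0.042 and 0.65 ± 0.10 in WT and KO AID-DIvA cells (edgeR adjusted p = 2.59e-06 and 0.000758), and 0.62 ± 0.10 and 0.71 ± 0.055 in WT and KO U2OS cells (edgeR adjusted p = 0.00195 and 1.1e-10).

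NFKB1, which encodes the precursor of p50, was the member that went down. In U2OS cells it was at 46.5, 55.3 and 56.5 CPM in untreated and 36.6, 39.3 and 38.1 CPM in treated WT cells. KO U2OS cells had 55.5, 59.1 and 55.9 CPM and 45.3, 44.9 and 42.8 CPM. Every treated library was below every untreated one of its genotype, with differences of -0.48 ± 0.090 in WT (edgeR adjusted p = 0.0033) and -0.36 ± 0.048 in KO cells (edgeR adjusted p = 6.5e-07). In AID-DIvA cells NFKB1 was at 55.9, 54.98 and 55.4 CPM in untreated and 61.9, 52.3 and 56.1 CPM in recovered WT cells, which overlapped (0.06 ± 0.055, edgeR adjusted p = 0.416). In KO AID-DIvA cells it rose from 60.3, 60.4 and 56.9 CPM to 75.3, 71.96 and 71.95 CPM (0.30 ± 0.058, edgeR adjusted p = 0.00263).

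RELA, which encodes the transactivating subunit p65, stayed within a narrow range, from 104 to 141 CPM over all 24 libraries. Its differences were 0.16 ± 0.042 (edgeR adjusted p = 0.00613) and 0.19 ± 0.073 (edgeR adjusted p = 0.0619) in WT and KO AID-DIvA cells, and -0.01 ± 0.066 and -0.05 ± 0.049 in U2OS cells (edgeR adjusted p = 0.938 and 0.391). The KO AID-DIvA difference passed, among others, without replicate 3 of the recovered (edgeR adjusted p = 0.0402) or of the untreated cells (edgeR adjusted p = 0.0499). It was called in 4 of 14 alternatives, a log2 threshold of 1 not counted. REL, which encodes c-Rel, had the lowest level per length of the subunits, with group means up to 4.42 TPM. It was at 13.6, 11.6 and 12.4 CPM in untreated and 14.9, 13.8 and 15.2 CPM in recovered WT AID-DIvA cells, a difference of 0.25 ± 0.072 (edgeR adjusted p = 0.0121), and this call was lost without replicate 2 of the untreated cells (edgeR adjusted p = 0.0787) and in the fit of all 24 libraries (edgeR adjusted p = 0.528), where the WT call of RELA was lost too (edgeR adjusted p = 0.0716). In WT U2OS cells REL was at 3.59, 12.5 and 12.7 CPM untreated and 14.1, 14.3 and 13.2 CPM treated. The first untreated library lay far below its fellows, and REL has the longest exonic sequence of the members, at 11255 bases. The difference of 0.53 ± 0.39 (edgeR adjusted p = 0.299) became 0.13 without that library (edgeR adjusted p = 0.0823). In KO cells the differences were 0.04 ± 0.13 in AID-DIvA (edgeR adjusted p = 0.822) and 0.17 ± 0.076 in U2OS cells (edgeR adjusted p = 0.056). The latter passed, among others, without replicate 1 of the treated KO cells (edgeR adjusted p = 0.00229). It was called in 4 of the same 14 alternatives.

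The size of the response was then compared between U2OS and AID-DIvA cells, which differ in line and in stage at once. In WT cells the responses of 6 members differed (45.4% of all tested genes did), and in KO cells those of 5 (46% of all), so the members' share was near that of all genes in both. Without replicate 1 of untreated WT U2OS cells, 8 members differed in WT (47.1% of all genes) and 7 in KO cells (51.8% of all), NFKB2 and NFKBIE being gained in WT cells at 0.30 and 0.40 (edgeR adjusted p = 0.0231 and 0.0187) and NFKBIB and NFKBIE in KO cells at -0.41 and 0.32 (edgeR adjusted p = 0.00572 and 0.0463). RELB, NFKB1, NFKBIA, TNFAIP3 and the WT difference of BIRC3 kept their calls without it, with WT differences of -1.03, -0.62, -0.32, 0.42 and 0.50. The WT difference of NFKBIB was -0.55 ± 0.17 with that library (edgeR adjusted p = 0.00816). It was -0.35 without it (edgeR adjusted p = 0.023). Differences below are U2OS minus AID-DIvA. The RELB response was smaller in U2OS cells, with a difference of -1.22 ± 0.17 in WT (edgeR adjusted p = 2.04e-06) and -1.06 ± 0.17 in KO cells (edgeR adjusted p = 1.81e-05). The responses of NFKB1 and NFKBIA were also lower in U2OS cells in both genotypes, with differences of -0.53 ± 0.097 and -0.66 ± 0.096 for NFKB1 (edgeR adjusted p = 5.59e-05 and 2.67e-06), and of -0.36 ± 0.12 and -0.83 ± 0.12 for NFKBIA (edgeR adjusted p = 0.0154 and 3e-06). The WT difference of NFKBIA did not pass without replicate 1 of the recovered WT cells (edgeR adjusted p = 0.0524). TNFAIP3 responded more in U2OS cells, by 0.53 ± 0.15 in WT (edgeR adjusted p = 0.00606) and 0.50 ± 0.16 in KO cells (edgeR adjusted p = 0.0107). BIRC3 responded more in WT U2OS cells, by 0.63 ± 0.19 (edgeR adjusted p = 0.00754), whereas in KO cells the difference was 0.26 ± 0.19 (edgeR adjusted p = 0.273).

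**Figure D3:**
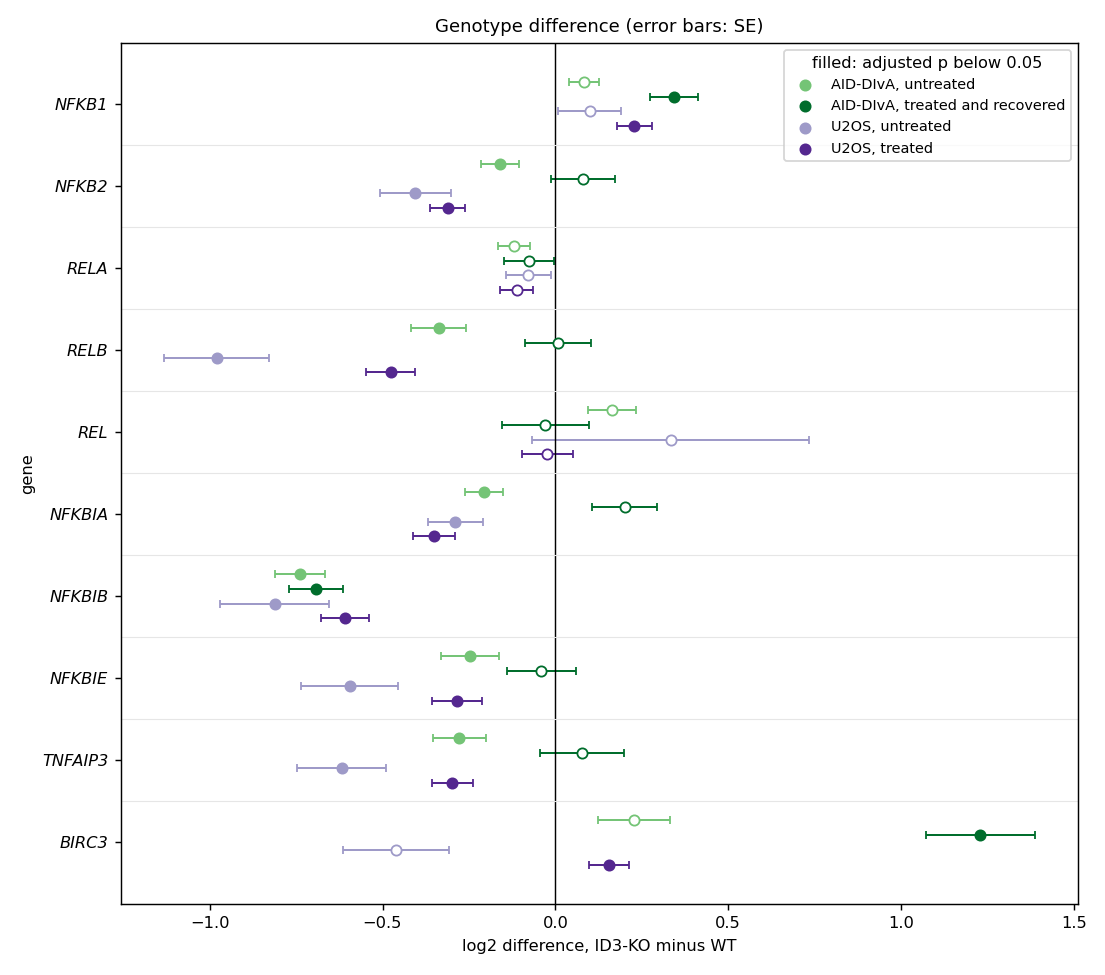
Log2 difference, ID3-KO minus WT, on the horizontal axis for each member in both lines, untreated and treated, with bars of 1 standard error and filled points for an adjusted p below 0.05. NFKBIB lies between -0.81 and -0.61 in all 4 comparisons, while BIRC3 in recovered AID-DIvA cells stands at 1.23.

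Untreated KO cells had lower RNA of 6 members than untreated WT cells in each line, and these were the same 6: NFKB2, RELB, NFKBIA, NFKBIB, NFKBIE and TNFAIP3. In AID-DIvA cells 36.7% of all tested genes were called in either direction (18.1% lower), and in U2OS cells 15.2% (8.63% lower). The share of all genes called lower in both lines is not given here, so the agreement of the 6 has no background beside it. No member was called higher in KO cells in either line, and DESeq2 called none higher. At an unadjusted p below 0.05, for which no share of all genes is given here, 2 members were higher in AID-DIvA cells and 0 in U2OS cells. The difference was largest for NFKBIB in AID-DIvA cells and for RELB in U2OS cells, and the per-library values of both genes, given above, did not overlap between genotypes in either line. NFKBIB differed by -0.74 ± 0.072 in AID-DIvA (edgeR adjusted p = 1.18e-06) and -0.81 ± 0.16 in U2OS cells (edgeR adjusted p = 0.0132). RELB differed by -0.34 ± 0.078 in AID-DIvA (edgeR adjusted p = 0.00288) and -0.98 ± 0.15 in U2OS cells (edgeR adjusted p = 0.00532). TNFAIP3 differed by -0.28 ± 0.077 and -0.62 ± 0.13, NFKBIE by -0.25 ± 0.083 and -0.60 ± 0.14, NFKBIA by -0.21 ± 0.054 and -0.29 ± 0.079, and NFKB2 by -0.16 ± 0.054 and -0.41 ± 0.10, with AID-DIvA cells first.

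Calls in the untreated comparisons changed with single libraries. In U2OS cells, without the outlying WT library, the same 6 members and BIRC3 were lower in KO cells, with NFKBIB at -0.60, RELB at -0.78, TNFAIP3 at -0.72, NFKBIE at -0.41, NFKBIA at -0.24, NFKB2 at -0.29 and BIRC3 at -0.59, and 41.1% of all genes were called. With it kept and any 1 of the 3 untreated KO libraries left out, RELB alone stayed called, and NFKBIB reached an edgeR adjusted p of 0.0552 to 0.0788. In AID-DIvA cells, leaving out KO replicate 3 called all 10 members, with NFKB1, REL and BIRC3 higher in KO cells and the others lower. Leaving out KO replicate 1 called 3. In the fit of all 24 libraries NFKBIB alone stayed called in AID-DIvA cells.

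After recovery, 2 members were called higher and 1 lower in KO than in WT AID-DIvA cells (23.7% of all genes were called). BIRC3 was higher in KO cells by 1.23 ± 0.16 (edgeR adjusted p = 0.000492), a 2.34-fold difference, and NFKB1 by 0.34 ± 0.070 (edgeR adjusted p = 0.005). NFKBIB was lower (difference -0.69 ± 0.078, edgeR adjusted p = 0.000135). In treated U2OS cells 6 members were lower in KO cells and 2 higher (37.9% of all genes were called). The 6 were again NFKB2 (-0.31 ± 0.051), RELB (-0.48 ± 0.071), NFKBIA (-0.35 ± 0.062), NFKBIB (-0.61 ± 0.069), NFKBIE (-0.29 ± 0.072) and TNFAIP3 (-0.30 ± 0.059), with an edgeR adjusted p of 0.00304 or less in each. NFKB1 was higher by 0.23 ± 0.051 (edgeR adjusted p = 0.000603) and BIRC3 by 0.16 ± 0.057 (edgeR adjusted p = 0.0328). The BIRC3 call was lost, among others, without treated KO replicate 1 (edgeR adjusted p = 0.187) and without any 1 of the 3 treated WT libraries (edgeR adjusted p = 0.0593 to 0.14). It was kept in 8 of 14 alternatives, the log2 threshold of 1 not counted. NFKBIB was therefore the 1 member lower in KO cells in every genotype comparison.

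Whether the response itself differed between genotypes was tested with the interaction of genotype and treatment. In AID-DIvA cells 1 member passed, BIRC3 (1.21% of all genes passed), which rose more in KO than in WT cells by 0.99 ± 0.21 (edgeR adjusted p = 0.0338). At an unadjusted p below 0.05, 5 members had a larger response in KO cells and 0 a smaller one. The share of all genes at that unadjusted threshold is not given here, and the 1.21% is not its background. The BIRC3 difference stayed between 0.90 and 1.14 in all alternatives. It kept its call in 3 of the 12 refits that left out 1 library, those without replicate 1 of recovered WT cells or without replicate 1 or 3 of recovered KO cells, and in the other 9 the edgeR adjusted p was 0.0511 to 0.0955. In U2OS cells edgeR called 0 members (2.15% of all genes passed), and DESeq2 called 1, BIRC3. An unadjusted p below 0.05 was reached by 3 members, again without a share of all genes beside it. The BIRC3 interaction was 0.62 ± 0.15 (edgeR adjusted p = 0.056). Without replicate 1 of untreated WT cells it was 0.74 (edgeR adjusted p = 2.77e-05), and TNFAIP3 passed as well at 0.41 (edgeR adjusted p = 0.00785), with 9.03% of all genes called.

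To place the members in their pathway, 3 lists of other NF-κB genes were followed: 30 target genes, 22 upstream kinases and adaptors, and 16 other inhibitors and brakes. Of the target genes, 24 were tested in AID-DIvA cells, and 21 were higher and 1 lower in WT cells, and 22 higher in KO cells, where the other two were not called. In U2OS cells 25 were tested, with 18 higher and 2 lower in WT and 19 higher and 3 lower in KO cells. The list medians were 1.04, 1.12, 0.91 and 0.80 in that order, against the medians near 0 of all genes given above, and the share of all tested genes called higher was 20.2% to 35.8%. Of the genes tested, CSF2, IL1A and TNF in AID-DIvA cells and IL1A and SELE in U2OS cells did not pass the filter on low counts among the untreated libraries of their line, so they were tested only because treated libraries were higher. Among the 21 and 23 that did pass it, a restriction chosen after the data were seen, 18 and 19 were higher in WT and KO AID-DIvA cells and 16 and 17 in WT and KO U2OS cells, with medians of 1.01, 0.79, 0.90 and 0.78. Without replicate 1 of untreated WT U2OS cells, 20 of 26 tested targets were higher and 4 lower in WT U2OS cells, with a median of 0.96. Of all genes, 66.4% were then called in either direction. CXCL8, a chemokine that attracts neutrophils, rose by 4.09 ± 0.37 and 4.92 ± 0.12 in WT and KO AID-DIvA cells (edgeR adjusted p = 0.000344 and 2.69e-08) and by 4.33 ± 0.13 and 7.23 ± 0.14 in WT and KO U2OS cells (edgeR adjusted p = 8.13e-07 and 1.69e-20). CCL20, a chemokine ligand of CCR6, rose by 3.82 ± 0.25, 3.77 ± 0.15, 5.47 ± 0.20 and 5.39 ± 0.10 in the same order. The cytokine gene IL1A, subject to that filter in both lines, differed by 2.34 ± 0.30, 2.39 ± 0.25, 4.10 ± 0.31 and 4.63 ± 0.26, and BCL2A1, an antiapoptotic BCL2 relative, rose by 3.50 ± 0.36, 4.56 ± 0.26, 3.75 ± 0.38 and 3.87 ± 0.40. These rises started from low levels. Untreated group means were 0.27 to 2.12 CPM for CXCL8, 0.45 to 1.38 CPM for CCL20 and 0.097 to 0.23 CPM for IL1A. For BCL2A1 they were 0.059 to 0.25 CPM, and its treated means were 1.26 to 3.20 CPM. LTA and PLAU were among the few that fell, LTA by 0.74 in WT AID-DIvA cells and PLAU by 0.78 and 0.46 on the log2 scale in WT and KO U2OS cells.

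**Figure D4:**
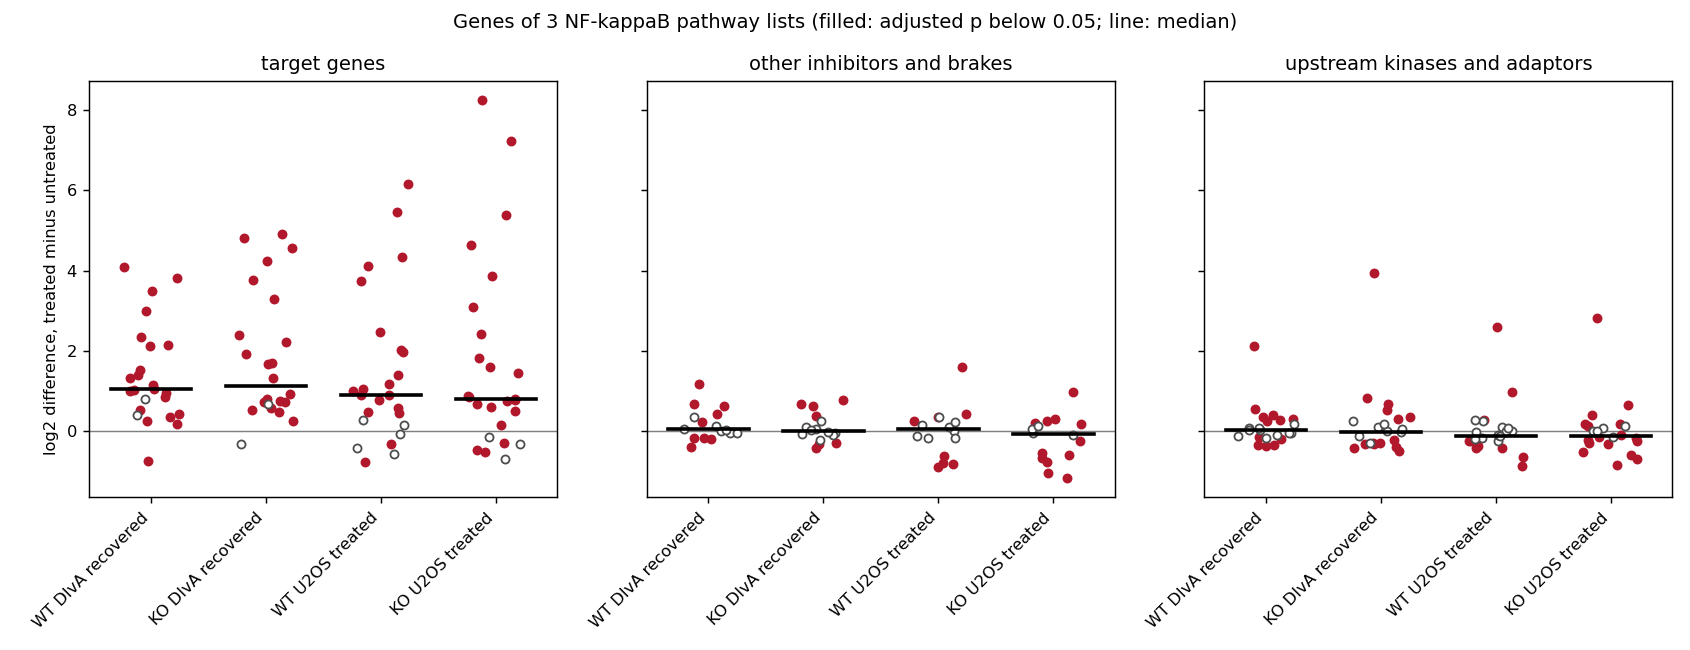
Log2 difference, treated minus untreated, on the vertical axis for every tested gene of 3 NF-κB pathway lists in the 4 treatment comparisons, with filled points for an adjusted p below 0.05 and lines for the list medians. Target genes have medians of 0.80 to 1.12, and the medians of the other lists lie between -0.13 and 0.05.

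The upstream list held calls in both directions. In WT and KO AID-DIvA cells 7 and 6 of its 22 genes were higher and 5 and 8 lower, where 23.9% and 20.2% of all tested genes were higher and 23% and 19.9% lower. In WT and KO U2OS cells 3 and 6 were higher and 7 and 11 lower, where 26% and 35.8% of all genes were higher and 22.9% and 34% lower. Without replicate 1 of untreated WT U2OS cells, 5 were higher and 12 lower in WT U2OS cells, where 66.4% of all genes were called in either direction. TRAF1, an adaptor of TNF receptors, rose the most, by 2.11 ± 0.076 and 3.94 ± 0.16 in WT and KO AID-DIvA cells and by 2.60 ± 0.10 and 2.81 ± 0.12 in WT and KO U2OS cells. MAP3K14, which encodes NIK, rose by 0.98 ± 0.068 and 0.64 ± 0.063 in WT and KO U2OS cells. In AID-DIvA cells it was called higher in KO cells (0.68 ± 0.086) but not in WT cells (0.18 ± 0.082). IKBKE, an IκB kinase relative, rose by 0.55 ± 0.060 and 0.84 ± 0.095 in WT and KO AID-DIvA cells. TRAF3, which targets NIK for degradation, rose there by 0.34 ± 0.049 and 0.52 ± 0.061. In U2OS cells IKBKE was not called, and TRAF3 was called higher in KO cells only (0.13 ± 0.053). The TNF receptor gene TNFRSF1A fell by 0.87 and 0.85 and the kinase gene IRAK1 by 0.65 and 0.70 on the log2 scale in WT and KO U2OS cells. TNFRSF1A was also called lower in WT and KO AID-DIvA cells (-0.37 and -0.32), where IRAK1 was not called. RIPK1, a kinase recruited to that receptor, fell by 0.34 and 0.42 in WT and KO AID-DIvA cells. It was also called lower in WT and KO U2OS cells (-0.25 and -0.18).

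Of the 16 other inhibitors and brakes, 5 and 4 were higher and 4 and 3 lower in WT and KO AID-DIvA cells, and 4 and 5 higher and 4 and 7 lower in WT and KO U2OS cells. Read against the shares of all genes just given, these counts were near the background. Without the outlying library 6 were higher and 6 lower in WT U2OS cells, where 66.4% of all genes were called in either direction. The genes of the 3 lists named here as called in WT U2OS cells kept their direction and call. IKBKE, not called with that library, was then called lower. NFKBIZ, which encodes the nuclear protein IκBζ, rose by 1.17 ± 0.087, 0.76 ± 0.10, 1.59 ± 0.14 and 0.98 ± 0.056 in WT and KO AID-DIvA and WT and KO U2OS cells. TNIP1, a partner of A20, rose by 0.68 ± 0.044 and 0.67 ± 0.082 in AID-DIvA cells, ZC3H12A, an RNase that degrades cytokine transcripts, by 0.62 ± 0.062 and 0.62 ± 0.079, and the deubiquitinase gene CYLD by 0.41 ± 0.046 and 0.37 ± 0.063. CYLD also rose in WT and KO U2OS cells (0.43 ± 0.074 and 0.30 ± 0.057). ZC3H12A was called higher there in KO cells only (0.17 ± 0.067), and TNIP1 in neither genotype. Without the outlying library ZC3H12A and TNIP1 were called higher in WT U2OS cells too (0.31 and 0.21). In U2OS cells PDLIM2, whose product promotes degradation of p65, fell by 0.90 and 1.18, NFKBID, which encodes a nuclear IκB protein, by 0.82 and 1.04, and COMMD1 by 0.79 and 0.59 on the log2 scale in WT and KO cells. In AID-DIvA cells PDLIM2 was called lower in WT cells only (-0.41 ± 0.060), and NFKBID and COMMD1 were not called.

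Finally, the genes whose level ran most like that of a member over the 24 libraries were sought among 15593 genes, by Pearson's r of log2(CPM + 0.5). These r describe 24 libraries that share treatment groups, lines and depth. NFKB2 ran most like another member, NFKBIE (r = 0.987), and ran close to PSD (0.970). TNFAIP3 ran most like CXCL8, named IL8 in the files (r = 0.985), then HK1 (0.982) and SYP (0.981). BIRC3 was closest to DUSP5 (0.984), PTX3 (0.982) and KRT20 (0.977), whereas by Spearman's rank its closest were COLEC12, KLRC2 and MAFF (0.950, 0.941 and 0.939). NFKBIA was closest to IL32 (0.969), FGF1 (0.959) and IL4I1 (0.959), RELB to TNIP1 (0.945), GCAT (0.944) and RINL (0.935), and NFKB1 to PNN (0.951), RIMKLB (0.949) and CTBP2 (0.948). By Spearman's rank the closest of NFKBIA were RINL, ITGAM and FGF1, and those of RELB were RP11-401O9.3, PLA2G4C and NFKBIA. Those of NFKB1 were RIMKLB, INPP4B and F2RL1, while CXCL8 and NFKBIE stayed the closest of TNFAIP3 and NFKB2. Among the members themselves, r was -0.62 between NFKB1 and NFKB2 and 0.90 between NFKB2 and TNFAIP3.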

How the data were processed

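RNA was measured in 24 libraries of 8 groups. Stranded total RNA libraries were read in pairs of 100 bases, the authors used STAR for alignment to hg19/GRCh37, and they deposited featureCounts counts per gene without normalization or pooling, for either strand together and by strand. Tool versions were not given in the sources used here. The methods name another annotation release (v.29 lift 37) than the gene identifiers imply, so coordinates are those of the files. The deposited TPM values, of which the set with equal sums in all libraries was used, served only for levels between genes.

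Counts of either strand were tested in R 4.3.3 with edgeR 4.0.16 (TMM, filterByExpr, robust quasi-likelihood fit, Benjamini-Hochberg adjustment). Each treatment or genotype comparison used its own 6 libraries, an interaction the 12 of its line, and the difference between lines all 24. Groups followed sample titles, also where another label field disagreed. The spread between 3 replicates was larger than that expected from counting alone in all but 12 of the 80 combinations of member and group; counting error reached 8.38% for BIRC3, which had as few as 121 counts in a library. No pair of replicates agreed within sampling noise. The steps were tested on simulated counts.

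The members, lists and rules were chosen with earlier results of these data known. Named were all members, from each list and line up to 4 genes with the largest mean log2 difference of WT and KO cells among those called in both with at least 1 CPM, and the 3 genes most like each of 6 members, of which 1 is not reported here. LTA and PLAU were named after their values were seen. Alternatives were DESeq2 1.42.0, its size factors in edgeR, library totals alone, no filter, at least 10 counts in every library, reverse-strand counts, a log2 threshold of 1, all libraries in 1 fit, a replicate block, each library left out (96 refits) and Spearman's rank. The ATAC-seq and proteome experiments were not analysed here.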

Additional observations from a re-analysis of the deposited data

Results flagged for a closer look

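The responses of several members differed between groups when the difference itself was tested with edgeR's quasi-likelihood test and Benjamini-Hochberg adjustment. In AID-DIvA cells BIRC3 rose more in KO than in WT cells, by 0.99 (adjusted p = 0.0338, n = 3 libraries a group), a call lost in 9 of the 12 refits without 1 library (adjusted p up to 0.0955) and with a replicate block. Between U2OS and AID-DIvA cells, where line and stage cannot be told apart, the WT response differed for RELB by -1.22, NFKBIB by -0.55, NFKB1 by -0.53, NFKBIA by -0.36, TNFAIP3 by 0.53 and BIRC3 by 0.63. The KO response differed for RELB by -1.06, NFKBIA by -0.83, NFKB1 by -0.66, RELA by -0.25 and TNFAIP3 by 0.50. The adjusted p-values of these 11 differences were between 2.04e-06 and 0.029. Without replicate 1 of untreated WT U2OS cells the WT difference of NFKBIB was -0.35 (adjusted p = 0.023), still called. RELB and NFKB1 kept both calls, and TNFAIP3 too, when any 1 library was left out. The KO difference of RELA did not pass without replicate 1 of recovered KO AID-DIvA cells (adjusted p = 0.0996) and in 4 other such refits.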

How the results depend on the processing

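Over the 12 comparisons the 10 members gave 2260 values under the alternatives. Of these, 2092 kept direction and side of the threshold, 124 lost the call, 44 gained it, and 0 called values changed sign. DESeq2, its size factors in edgeR, and reverse-strand counts each kept at least 118 of 120. Library totals alone raised the median of all genes by 0.11 (log2) in both the WT and the KO response difference between lines, to 0.12 and 0.15, and NFKBIA lost its WT call there.

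The number of members called moved by over 1.5 times as follows. With a log2 threshold of 1 it was 3 and 4 in WT and KO AID-DIvA cells, 2 and 3 in WT and KO U2OS cells, 0 and 0 in untreated AID-DIvA and U2OS genotype comparisons, 1 and 0 in treated ones, 0 in the AID-DIvA interaction, and 1 and 1 in the WT and KO response differences. The fit of all 24 libraries called 1 in untreated AID-DIvA cells and, within 1.5 times, 7 in place of 9 in WT AID-DIvA cells. Without a filter 2 members passed in each interaction. In the U2OS interaction 1 passed with at least 10 counts in every library, with DESeq2 and with its size factors in edgeR.

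Leaving out each library gave 8 to 9 calls in WT and 8 to 9 in KO AID-DIvA cells, 6 to 8 in WT and 7 to 8 in KO U2OS cells, 3 to 10 and 1 to 7 in untreated AID-DIvA and U2OS genotype comparisons, 3 to 3 and 7 to 8 in treated ones, 0 to 3 and 0 to 2 in AID-DIvA and U2OS interactions, and 5 to 8 and 4 to 7 in the WT and KO response differences. The extremes came without untreated KO AID-DIvA replicate 1 (3) or 3 (10), any untreated KO U2OS library (1), recovered WT AID-DIvA replicate 1 (3 in the interaction) and untreated WT U2OS replicate 1 (2 in the interaction). The cause was not tested.

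Replicate numbers did not pair the samples: same-numbered deviations correlated between -0.12 and 0.11. With a replicate block, 0 members passed in the AID-DIvA interaction (BIRC3 0.99, edgeR adjusted p = 0.0749), 4 of 120 values lost the call and 1 gained it.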

Other observations

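The counts of NF-κB target genes called in the genotype comparisons differed between the lines, already before treatment. That difference between lines was not itself tested, and some single genes went the same way in both lines. In untreated U2OS cells 8 of 23 tested targets were lower and 2 higher in KO cells (8.63% and 6.56% of all genes), median -0.40. Without replicate 1 of untreated WT cells 11 were lower and 2 higher, median -0.50, with 41.1% of all genes called. In untreated AID-DIvA cells 4 of 21 were lower and 5 higher (18.1% and 18.6% of all genes), median 0.04. In treated U2OS cells 15 of 25 tested target genes were lower and 1 higher in KO than in WT cells, with a median log2 difference of -0.46, where 19% of all tested genes were lower and 19% higher. In recovered AID-DIvA cells 6 of 24 were lower and 9 higher, with a median of 0.08, where 11.1% of all genes were lower and 12.6% higher. MMP9, a matrix metalloproteinase gene, was lower in KO cells in all 4 genotype comparisons, by -2.24 ± 0.080 and -0.81 ± 0.20 in untreated and recovered AID-DIvA cells and by -1.72 ± 0.085 and -1.42 ± 0.065 in untreated and treated U2OS cells (edgeR adjusted p = 3.85e-11, 0.0169, 4.18e-05 and 9.19e-17). TNF, which encodes a cytokine that activates NF-κB, was higher in KO cells after recovery in AID-DIvA cells (1.88 ± 0.22, edgeR adjusted p = 0.000146) and lower in KO cells in treated U2OS cells (-0.72 ± 0.19, edgeR adjusted p = 0.00349). LTB, which encodes lymphotoxin β, an activator of the alternative pathway, took the same directions (2.18 ± 0.22 and -0.57 ± 0.22, edgeR adjusted p = 7.28e-05 and 0.0382). TNF did not pass the filter on low counts among untreated AID-DIvA libraries, and the levels of TNF and LTB are not given here. CCL20 was also higher in recovered KO AID-DIvA (0.74) and lower in treated KO U2OS cells (-0.37). BCL2A1 (-0.94 and -1.35) and IL1A (-0.79 and -0.66) were lower in KO cells in both. CXCL8 was lower in untreated KO AID-DIvA cells by -0.81 ± 0.19 (edgeR adjusted p = 0.00309), where its interaction was not called (0.84 ± 0.42, edgeR adjusted p = 0.471). In untreated KO U2OS cells CXCL8 was lower by -2.95 ± 0.22 (edgeR adjusted p = 0.000209). Its response there was larger in KO cells by 2.91 ± 0.23 (edgeR adjusted p = 1.21e-05). Without replicate 1 of untreated WT U2OS cells the 2 U2OS values of CXCL8 were -2.81 and 2.76, and MMP9 in untreated U2OS cells -1.69, all still called. The larger CXCL8 response started from a mean of 0.27 CPM in untreated KO U2OS cells, against 2.12 CPM in untreated WT cells. Treated KO and WT U2OS cells were at 41.5 and 42.7 CPM, with a difference of -0.04 ± 0.068 (edgeR adjusted p = 0.665). These genes were singled out after their values were seen. A κB match was present in a promoter of 13 of the 25 target genes in the RefSeq table, against 7.09% of all its genes.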
